A study of Mus musculus with 10 samples.

Results

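The genes described here are Igf2bp1, Igf2bp2, Igf2bp3, Lin28b, Hmga2 and Trim71, regulators of growth and of developmental timing whose products are abundant in embryonic tissue. They were taken by name from the deposited occupancy table. They make up 6 of its 20045 gene symbols, and each has a single entry. The group was selected on measured values of these libraries, the late rise of the repressive mark H3K27me3 at Igf2bp1, so the late H3K27me3 values of that gene are a description and not a finding. Over the course, H3K27me3 at the transcription start site (TSS) was at least 2-fold higher at PN15 than at E17.5 at 5 of the 6 genes (12.1% of all symbols), Igf2bp1 among them, and H3K4me2 was at least 2-fold lower at 4 of them (11.7% of all symbols). From PN7 to PN15 H3K27me3 passed 2-fold at 1 gene in each direction, higher at Igf2bp3 (15% of all symbols) and lower at Lin28b (9.67%).

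The Igf2bp genes encode RNA-binding proteins that hold target mRNAs, including that of the growth factor Igf2, in cytoplasmic particles and act on their stability and translation. Lin28b encodes an RNA-binding protein that blocks maturation of the let-7 microRNAs. Trim71, the counterpart of the worm heterochronic gene lin-41, encodes a ubiquitin ligase that also represses mRNAs, and Hmga2 encodes a small chromatin protein that binds AT-rich DNA. The mRNAs of all 6 genes are known targets of let-7, which is scarce in early embryos and accumulates as tissues mature. H3K4me2 marks active and poised promoters, and H3K27me3 is laid down by Polycomb repressive complex 2 at silenced developmental genes. Promoters that carry both are called bivalent.

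Retinal chromatin was collected at E17.5 (embryonic day; E17 in the labels), PN1, PN7 and PN15 (postnatal days), from pools of at least 20 retinas a stage, and was precipitated with antibodies to H3K4me2 or H3K27me3. The 8 libraries used here are 1 for each mark and stage, with no treatment. The column of the PN7 H3K27me3 library carries a letter b after the mark that its label does not explain, and every PN7 value of H3K27me3 rests on that column. The labels give the strain of every library as Pde6b (rd1/rd1), a mutation that kills rod photoreceptors after birth, whereas the study's methods describe wild-type C57BL/6j retinas with the mutant as a control lacking rods, so the sources differ. Of all titles in the labels, only that of the PN30 library names rd1, and the H3K4me2 of all 6 rod markers was higher on PN15 than on E17.5 (values below). The anti-GFP control and the H3K4me2 library of PN30 rd1/rd1 retinas were not analysed here.

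Each value is a normalized occupancy: the reads within 2.5 kb on either side of a TSS, scaled by the authors to the reads mapped in that library and rounded to a whole number. The windows are of equal length for every gene, so levels can be set side by side between genes. With no replicate libraries, no test between stages was possible. The intervals given in brackets are exact 95% Poisson intervals, which cover counting error only and say nothing about variation between animals or preparations. For H3K4me2 at PN7 and PN15 and H3K27me3 at E17.5 they assume that 1 unit is 1 read. Because the tissue holds many cell types whose proportions change, fewer cells carrying a mark cannot be told apart from less of the mark in each cell.

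A few facts of the libraries bear on every value. The median occupancy over entries was 9 to 10 in the 4 H3K27me3 libraries and 24 to 43 in the H3K4me2 libraries. The H3K4me2 library of PN7 stood apart, since 19.5% of its entries were at 0 against at most 2.52% in the other 3, and between PN7 and PN15 the H3K4me2 of 52.3% of symbols became at least 2-fold higher, with a median log2 change of 1.0. The median of all symbols also moved by -0.42 from E17.5 to PN1, by -0.50 from PN1 to PN7 and by 0.13 over the whole course, so log2 changes of H3K4me2 are also given below relative to these medians. For H3K27me3 the median moved by -0.16 from PN1 to PN7 and by 0.00 in the other 3 comparisons. Changes from PN7 to PN15 and from E17.5 to PN15 share the PN15 libraries and are not independent of each other. The 6 rod markers examined (Sag, Crx, Nrl, Nr2e3, Gnat1 and Pde6b) all had at least 2-fold higher H3K4me2 at PN15 than at E17.5, with a background of 7.83% of symbols, for example 158 against 20 at Crx. H3K4me2 at the markers of lens, pigment epithelium, microglia and red blood cells was 22 or less in every library. It was higher at 1 of the 3 vessel markers, Kdr, with 112 at E17.5 and 70 at PN15.

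The 9 mature mouse miRNAs of the let-7 family in RefSeq (let-7a to let-7g, let-7i and miR-98) share the seed GAGGUAG, bases 2 to 8, through which they pair with mRNAs. The differences between family members lie outside it, as these 3 show, with the seed in capitals.
let-7a: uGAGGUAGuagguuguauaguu
let-7i: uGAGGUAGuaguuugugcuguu
miR-98: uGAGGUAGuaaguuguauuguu

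The 7 bases complementary to this seed, CTACCTC, were searched on the mRNA strand of the 3′ UTR of each gene in the NCBIM37 (mm9) annotation. All 6 genes held it, with 4 matches in Igf2bp1, 1 in Igf2bp2, 1 in Igf2bp3, 4 in Lin28b, 4 in Hmga2 and 2 in Trim71. Among 19915 genes with an annotated 3′ UTR, 8.81% held at least 1 match, and 17.1% of the 7101 genes whose UTR was at least as long as the shortest of the 6. At least 3 matches were present in 3 of the 6, in 0.131% of all these genes and in 0.352% of those with a UTR so long. The UTRs of these 3 (Igf2bp1, Lin28b and Hmga2) were 6337, 4445 and 3014 bases long, so the second share is not matched to their length. The density was 0.839 matches per kb in the 6 UTRs against 0.0763 per kb over all of them. The genes were grouped as heterochronic regulators with their regulation by let-7 known, so this is no independent evidence. A match is a description and was not tested as a binding site. For each gene, 1 site is printed in the mRNA sense because it shows the element that the 6 transcripts share, the capitals marking the match and the A that follows it. Printed sites were taken among those with this A, which follows 3 of the 4 matches of Igf2bp1, 1 of 4 in Lin28b, 1 of 4 in Hmga2 and every match of the other 3 genes.
Igf2bp1 site, chr11:95823092-95823115, minus strand: tgctgtgcgaagtaaaCTACCTCA
Igf2bp2 site, chr16:22059546-22059569, minus strand: aacacacaaataaaagCTACCTCA
Igf2bp3 site, chr6:49036786-49036809, minus strand: gtgcatttttactcaaCTACCTCA
Lin28b site, chr10:45100828-45100851, minus strand: cacccgggcgggaagtCTACCTCA
Hmga2 site, chr10:119801280-119801303, minus strand: cgccgacattcaatttCTACCTCA
Trim71 site, chr9:114421590-114421613, minus strand: caacattgcctaagtcCTACCTCA

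All 6 genes lie on the minus strand and are protein coding. In NCBIM37, Igf2bp1 spans chr11:95818477-95867254, Igf2bp2 chr16:22059082-22163372, Igf2bp3 chr6:49035220-49164953, Lin28b chr10:45096426-45206201, Hmga2 chr10:119798331-119913525 and Trim71 chr9:114420393-114473487. No other annotated gene started within 2.5 kb of the RefSeq start of 5 of them, or of the annotated start of Igf2bp1, which had no matched RefSeq start. Lin28b has 3 annotated protein-coding starts, the farthest of which lies 16194 bp from the RefSeq start, and the surroundings of that farthest start were not searched. The occupancy table gives no coordinates, so which start its Lin28b values describe is not known.

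The base composition of the promoters differed within the group, and CpG-rich promoters are those where Polycomb marks are usually found. In the 250 bases before the RefSeq start, CG dinucleotides numbered 40 in Igf2bp2, 21 in Igf2bp3, 17 in Trim71, 8 in Hmga2 and 6 in Lin28b. Over 27018 mouse promoters of the same length the median was 6, the quartiles were 2 and 16, and 91.7% held at least 1 CG. The Igf2bp2 promoter had more than 98.7% of all promoters, and that of Lin28b had more than 49.5%. The GC content of the Lin28b promoter, 39.2%, was above that of 10.9% of promoters. The richest, an intermediate and the poorest of these 5 are printed to show this range. They are RefSeq promoters of GRCm38.p6 with positions found by matching to NCBIM37, given 5′ to 3′ toward the gene with each CG, which reads the same on both strands, in capitals. The Igf2bp1 promoter was not measured and is not shown.
Igf2bp2 promoter, chr16:22163373-22163622, minus strand: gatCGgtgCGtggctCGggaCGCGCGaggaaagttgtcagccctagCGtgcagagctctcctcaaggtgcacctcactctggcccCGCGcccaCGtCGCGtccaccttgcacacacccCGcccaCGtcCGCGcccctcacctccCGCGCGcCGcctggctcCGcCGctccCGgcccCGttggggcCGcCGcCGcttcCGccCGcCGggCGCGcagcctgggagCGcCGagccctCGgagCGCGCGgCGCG
Igf2bp3 promoter, chr6:49164954-49165203, minus strand: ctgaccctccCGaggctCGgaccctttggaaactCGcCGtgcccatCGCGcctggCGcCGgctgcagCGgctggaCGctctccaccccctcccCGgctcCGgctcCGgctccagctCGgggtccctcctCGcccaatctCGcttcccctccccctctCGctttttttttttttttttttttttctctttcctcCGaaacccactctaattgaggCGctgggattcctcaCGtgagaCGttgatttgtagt
Lin28b promoter, chr10:45190008-45190257, minus strand: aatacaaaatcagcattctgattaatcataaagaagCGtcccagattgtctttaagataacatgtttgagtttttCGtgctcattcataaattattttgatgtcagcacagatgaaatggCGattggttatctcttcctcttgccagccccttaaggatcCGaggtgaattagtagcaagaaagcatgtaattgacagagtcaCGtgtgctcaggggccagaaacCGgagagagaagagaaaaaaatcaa

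At Igf2bp1 the 2 marks exchanged places over the course. Its H3K27me3 was 16 (9.15 to 26) at E17.5, 32 (22.7 to 43.7) on PN1, 146 (133 to 160) on PN7 and 236 (208 to 265) on PN15. The intervals of the first 2 stages overlapped, though the ratio of PN1 to E17.5 was 2 (1.09 to 3.83). The later values lay above both, and at PN15 only 134 of the 20045 symbols had a higher value. H3K4me2 was 101 (87.3 to 117) at E17.5, 58 (44.1 to 74.1) on PN1, 91 (73.3 to 112) on PN7 and 6 (2.2 to 13.1) on PN15. The first 3 stages were at percentile 90.2 or above of all symbols, and PN15 was at percentile 26.2. The occupancy of H3K4me2 was thus 15.2-fold (6.71 to 42.4) lower at PN15 than at PN7, a log2 change of -3.72, or -4.72 relative to the median of all symbols. No other symbol had a lower change of H3K4me2 between these stages, in a comparison where 2.04% of symbols were at least 2-fold lower. Against E17.5, which does not involve the PN7 library, the log2 change was -3.87, and 4 symbols had a lower one, or 3 to 12 with other pseudocounts. The H3K27me3 ratio of PN15 to E17.5 was 14.8 (8.9 to 26.1).

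At Igf2bp2 H3K27me3 was higher late in the course, while H3K4me2 differed little between its ends. The H3K27me3 occupancy was 9 (4.12 to 17.1) at E17.5, 9 (4.5 to 16.1) on PN1, 42 (35.1 to 49.6) on PN7 and 59 (46.1 to 75.2) on PN15. The intervals of the early stages did not overlap those of the late ones, and PN15 was 6.56-fold (3.28 to 15) above E17.5. H3K4me2 was 85 (72.4 to 99.5) at E17.5, 46 (34.3 to 61.3) on PN1, 126 (105 to 150) on PN7 and 92 (74.2 to 113) on PN15. The ends of the course overlapped, with a log2 change of 0.11, which is -0.02 relative to the median. From PN7 the log2 change to PN15 was -0.45, or -1.45 relative to the median, and -1.28 with the libraries rescaled to the same median. Of the 6 genes it alone had both marks at or above percentile 75 at PN15, as 1.74% of all symbols did.

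Igf2bp3 started with the lowest H3K27me3 of the group. Its values were 6 (2.2 to 13.1) at E17.5, 4 (1.33 to 9.56) on PN1, 35 (28.8 to 42.1) on PN7 and 97 (79.7 to 117) on PN15. In rank these were percentiles 20.3, 11.4, 82.4 and 95.0 of all symbols. PN15 was 16.2-fold (7.19 to 44.9) above E17.5, and 17 symbols had a larger log2 change than its 3.81. It was the only one of the 6 with at least 2-fold more H3K27me3 at PN15 than at PN7, 2.77-fold (2.11 to 3.63), where 15% of symbols passed that fold. H3K4me2 was 104 (89.8 to 120) at E17.5, 54 (40.8 to 69.9) on PN1, 104 (85 to 126) on PN7 and 46 (33.7 to 61.4) on PN15, so PN15 was 2.26-fold (1.63 to 3.19) below E17.5, a log2 change of -1.16, or -1.29 relative to the median of all symbols.

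**Figure D1:**
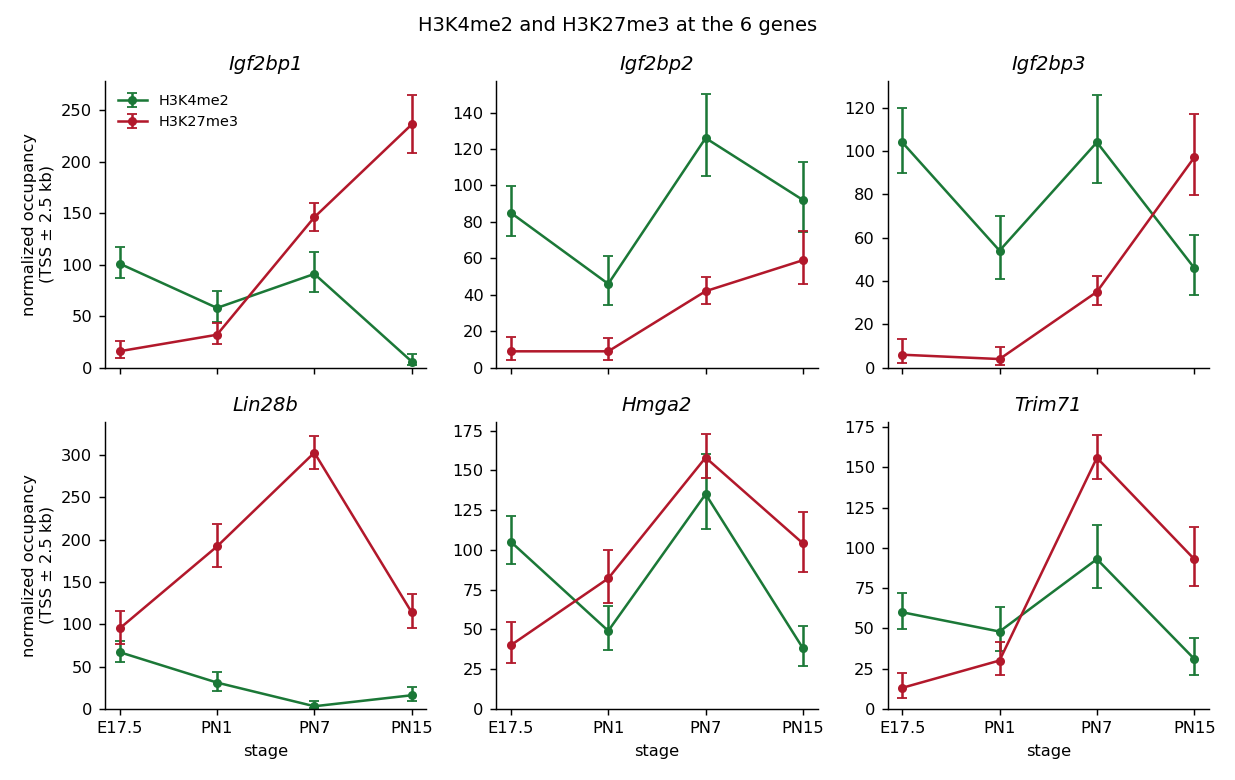
Normalized occupancy (y axis, within 2.5 kb of the TSS, a separate linear scale for each gene) against stage (x axis) for H3K4me2 (green) and H3K27me3 (red), 1 library a point, with exact 95% Poisson intervals as bars that cover counting error only. From PN7 to PN15 H3K27me3 passes 2-fold upward at Igf2bp3 (35 and 97) and downward at Lin28b (303 and 114), and by less at the other 4, and H3K4me2 at Igf2bp1 is 6 at PN15.

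Lin28b carried H3K27me3 from the first stage studied. The values were 95 (76.9 to 116) at E17.5, 192 (168 to 218) on PN1, 303 (284 to 323) on PN7 and 114 (95.6 to 136) on PN15. The PN7 value was the highest of the 6 genes in any library, and the PN15 value overlapped that of E17.5, with a ratio of 1.2 (0.917 to 1.58). From PN7 to PN15 the occupancy was 2.66-fold (2.21 to 3.21) lower, in a comparison where 9.67% of symbols were at least 2-fold lower. H3K4me2 was 67 (55.7 to 79.8) at E17.5, 31 (21.5 to 43.8) on PN1, 3 (0.619 to 8.77) on PN7 and 16 (9.15 to 26) on PN15. It was the lowest of the 6 at PN7 and lay 4.19-fold (2.48 to 7.55) lower at PN15 than at E17.5, a log2 change of -2.13 relative to the median. The 5.33-fold (1.53 to 28.6) gain from PN7 to PN15 starts from a value of 3 in the PN7 library with many zeros. Of all symbols, 52.3% gained at least 2-fold there.

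At Trim71 H3K27me3 was 13 (6.92 to 22.2) at E17.5, 30 (21.3 to 41.8) on PN1, 156 (143 to 170) on PN7 and 93 (76.5 to 113) on PN15. The step from PN1 to PN7 was 5.2-fold (3.68 to 7.39), and PN15 was 1.68-fold (1.35 to 2.08) below PN7 while still 7.15-fold (4.03 to 13.9) above E17.5. H3K4me2 was 60 (49.4 to 72.2) at E17.5, 48 (35.9 to 63.4) on PN1, 93 (75.1 to 114) on PN7 and 31 (21.1 to 44) on PN15. The PN15 value was 1.94-fold (1.29 to 2.98) below E17.5, just short of the 2-fold limit, and 3-fold (1.98 to 4.66) below PN7. Relative to the medians of all symbols these log2 changes were -1.06, which is past 2-fold, and -2.55. With the libraries rescaled to the same median, the log2 change from PN7 to PN15 was -2.38 in place of -1.55, and that over the whole course was -0.96, short of 2-fold.

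At Hmga2 H3K27me3 was 40 (28.6 to 54.5) at E17.5, 82 (66.7 to 99.7) on PN1, 158 (145 to 173) on PN7 and 104 (86 to 124) on PN15. The gene was already at percentile 85.0 at E17.5, and its PN15 value was 2.6-fold (1.8 to 3.81) higher than that of E17.5 and 1.52-fold (1.24 to 1.88) lower than that of PN7. H3K4me2 was 105 (90.8 to 121) at E17.5, 49 (36.7 to 64.5) on PN1, 135 (113 to 160) on PN7 and 38 (26.9 to 52.2) on PN15. At PN7 only 115 symbols had more H3K4me2, and at PN15 the gene was at percentile 47.7. Its H3K4me2 changed by -1.44 in log2 over the whole course, or -1.58 relative to the median, and the log2 change from PN7 to PN15 was -1.80, or -2.80 relative to it.

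Read across the group, H3K27me3 was at least 2-fold higher at PN15 than at E17.5 at 5 of the 6 genes, all but Lin28b, against 12.1% of all symbols. The median log2 change of the 6 was 2.67 and that of all symbols 0.00. At PN7 the mark was at least 2-fold above E17.5 at all 6 genes, against 7.11% of symbols, and at 5 genes it was so at both PN7 and PN15, against 4.79%. From E17.5 to PN1 the occupancy was at least 2-fold higher at 3 genes, Lin28b, Hmga2 and Trim71, with 5.74% of symbols, but at 0 genes with a pseudocount of 5 (1.08% of symbols), and from PN1 to PN7 at 4 genes, the 3 Igf2bp genes and Trim71, with 6.99%. None of the 6 was at least 2-fold lower from E17.5 to PN1, where 8.25% of symbols were. The 3 genes higher from E17.5 to PN1 lie within a log2 change of 1.01 to 1.15, and Igf2bp1 lay just outside at 0.96, since 1 is added to its 16 and 32. From PN1 to PN7 none was at least 2-fold lower, where 13.5% of symbols were. Since the group was formed around Igf2bp1, these counts include the gene that prompted it, without which 4 of 5 were higher at PN15 than at E17.5.

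The order of H3K27me3 levels within the group changed with age. At E17.5 Lin28b (95) was above Hmga2 (40), and both were above Igf2bp1 (16), Trim71 (13), Igf2bp2 (9) and Igf2bp3 (6), whose intervals overlapped from each to the next. At PN15 Igf2bp1 (236) was above the rest, Lin28b (114), Hmga2 (104), Igf2bp3 (97) and Trim71 (93) had overlapping intervals, and Igf2bp2 (59) was lowest.

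**Figure D2:**
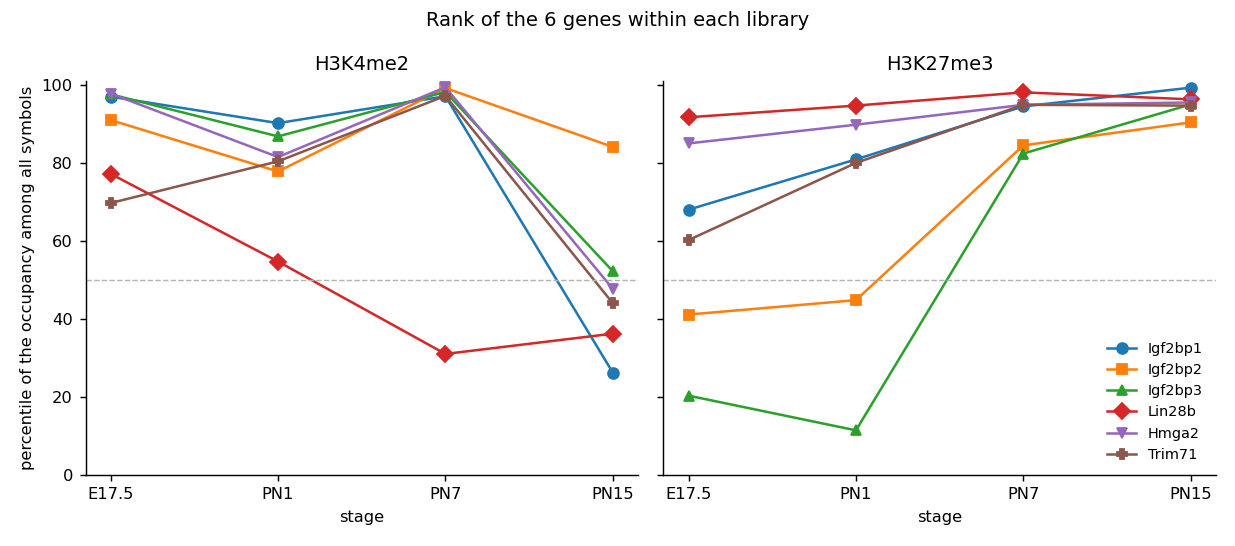
Percentile of each gene's occupancy among the 20045 symbols of a library (y axis) against stage (x axis), for H3K4me2 on the left and H3K27me3 on the right, with 1 library a point and the dashed line at percentile 50. All 6 genes are at percentile 82.4 or above for H3K27me3 at PN7 and at 90.4 or above at PN15, and for H3K4me2 at PN15 Igf2bp2 stays at 84.1 while the other 5 lie between 26.2 and 52.2.

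H3K4me2 was at least 2-fold lower at PN15 than at E17.5 at 4 of the 6 genes (Igf2bp1, Igf2bp3, Lin28b and Hmga2), against 11.7% of all symbols. The median log2 change of the 6 was -1.30, with 0.13 for all symbols. From PN7 to PN15 it was at least 2-fold lower at Igf2bp1, Igf2bp3, Hmga2 and Trim71, in a comparison where 2.04% of symbols were. With the libraries rescaled to the same median, Igf2bp2 joined them and the share of all symbols was 9.94%. The 4 calls of the deposited scale rest on the PN7 library that stood apart. With PN1 in its place, 1 of the 6 genes, Igf2bp1, was at least 2-fold lower at PN15, against 12.4% of symbols. From PN1 to PN7 H3K4me2 was at least 2-fold higher at Igf2bp2 and Hmga2, against 4.06% of symbols, and after rescaling to the same median at 4 genes against 7.35%, while it was 10.3-fold (3.26 to 53) lower at Lin28b (a log2 change of -2.50 relative to the median), where 36.8% of symbols were at least 2-fold lower. From E17.5 to PN1 the log2 changes were -0.32 at Trim71 and -0.79 to -1.09 at the other 5, and relative to the median they were 0.10 and -0.37 to -0.67. Of these only Lin28b and Hmga2 were at least 2-fold lower, and 6.71% of symbols were, while none was at least 2-fold higher, as 8.23% of symbols were. Neither Lin28b nor Hmga2 passed the limit once the libraries were rescaled to the same median.

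The 2 marks were then set beside each other. At least 2-fold more H3K27me3 together with at least 2-fold less H3K4me2 from E17.5 to PN15 was found at Igf2bp1, Igf2bp3 and Hmga2, that is 3 of 6, where 2.05% of all symbols met both limits. The H3K27me3 of Igf2bp1 chose the group, and without that gene the count was 2 of 5. Both marks were at or above percentile 75 at 2 of the 6 genes at E17.5 (3.76% of symbols), 3 at PN1 (3.52%), 5 at PN7 (7.81%) and 1 at PN15. Lin28b was the exception at PN7. Whether the marks lay on the same chromosomes or in different cells was not measured.

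**Figure D3:**
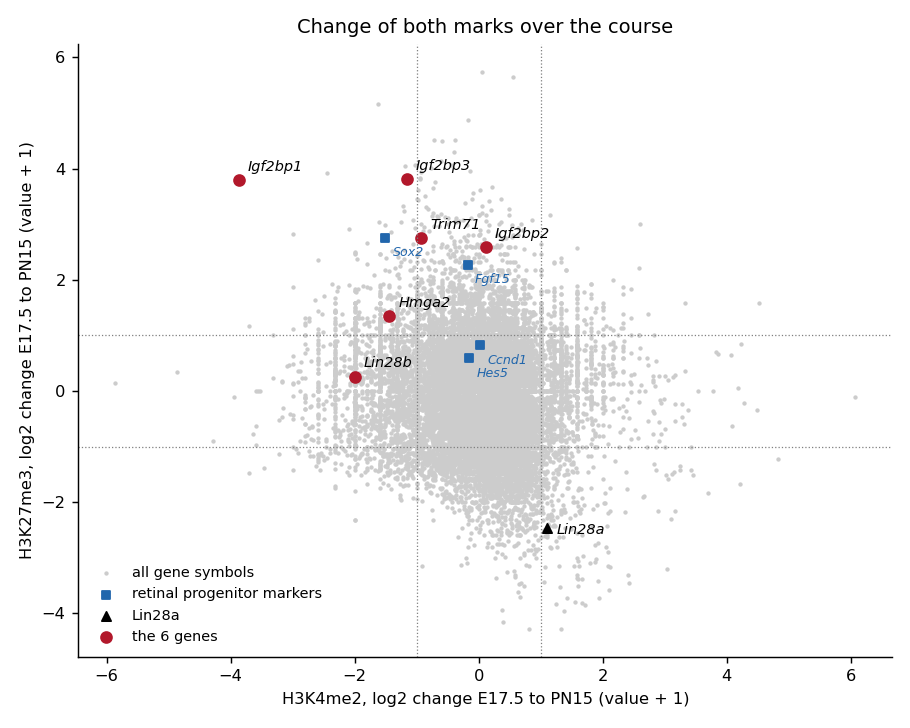
Log2 change from E17.5 to PN15 of H3K4me2 (x axis) against that of H3K27me3 (y axis), each of the value + 1, with a grey point for each of the 20045 symbols, the 6 genes in red, 4 retinal progenitor markers as blue squares and Lin28a as a black triangle; dotted lines mark a 2-fold change. Igf2bp1 lies at -3.87 and 3.80, Igf2bp2 at 0.11 and 2.58, and Lin28a at 1.11 and -2.47.

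Markers of dividing retinal progenitors, the cells that become rarer as the retina matures, were mixed. Of 4 such genes, Fgf15 (17 at E17.5 and 86 at PN15) and Sox2 (26 and 182) had at least 2-fold more H3K27me3 at PN15, and Ccnd1 (71 and 126) and Hes5 (7 and 11) did not, with 12.1% of all symbols past that limit. Sox2 alone of the 4 also had at least 2-fold less H3K4me2, with 104 at E17.5 and 36 at PN15, where 11.7% of symbols did. Over the same interval the H3K4me2 of all 6 rod markers was 3.31-fold to 9.73-fold higher. The part of the changing cell makeup in the values of the 6 genes was not tested.

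The paralogue Lin28a differed from Lin28b in both marks. Lin28a blocks let-7 maturation as Lin28b does, with the help of a terminal uridylyltransferase. Its H3K27me3 was 226 at E17.5, 320 on PN1, 142 on PN7 and 40 on PN15, while its H3K4me2 was 37, 21, 48 and 81 at the same stages. At PN15 its H3K27me3 was thus lower and its H3K4me2 higher than at E17.5, with log2 changes of -2.47 and 1.11. At Lin28b the corresponding log2 changes were 0.26 and -2.0.

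Among 19 genes of let-7 production and action, which include the Microprocessor, Dicer1, Argonaute and Lin28a, H3K27me3 was at least 2-fold higher at PN15 than at E17.5 at 1 and lower at 5. The background was 12.1% higher and 16.1% lower, and the median log2 change of the list was -0.49. Apart from Lin28a these differences were between low values. Syncrip, an hnRNP-like RNA-binding protein, had 13 at E17.5 and 3 at PN15, Tarbp2, a Dicer partner, 7 and 2, and Zcchc11, a terminal uridylyltransferase, 7 and 3. Eif2c2, the slicing Argonaute, also had 7 and 3. Hnrnpa1, with 5 and 11, was the gene that was higher, and Ddx5, an RNA helicase of the Microprocessor, had 3 and 5. H3K4me2 was at least 2-fold higher at PN15 than at E17.5 at 1 gene of this list, Lin28a, and lower at none (7.83% and 11.7% of all symbols), with a median of 0.32. The let-7 loci themselves were not analysed here.

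Of 36 other genes known as let-7 targets, 7 had at least 2-fold more and 4 at least 2-fold less H3K27me3 at PN15 than at E17.5, against 12.1% and 16.1% of all symbols, with a median log2 change of 0.11. Those with more were Fign, a microtubule-severing ATPase (7 at E17.5 and 36 at PN15), Nr2e1, a nuclear receptor of neural progenitors (65 and 184), Myc (19 and 53), Cdc25a (4 and 14), Hmga1 (5 and 12), Slc5a9 (11 and 24) and Igf1r, the IGF receptor, which is listed at 0 at E17.5 and had 4 at PN15. From PN7 to PN15, 2 of the 36 (Cdk6 and Slc5a9) had at least 2-fold more and 4 at least 2-fold less, against 15% and 9.67% of all symbols. Of the list genes with at least 2-fold more since E17.5, Slc5a9 alone also had at least 2-fold more at PN15 than at PN7 (9 and 24). Those with less were Nr6a1 (91 and 24), Hand1 (703 and 286), Gga3 (10 and 4) and Arid3a (14 and 6). Nr6a1 encodes a nuclear receptor of early embryos and Hand1 a heart and placenta transcription factor. H3K4me2 was at least 2-fold higher at 1 of the 36 and lower at 4 (7.83% and 11.7% of all symbols), one of them Nr2e1 with 118 at E17.5 and 37 at PN15. In the 3′ UTR, 24 of the 36 held the seed match and 3 held at least 3, where 8.81% and 0.131% of all genes did. The list was made of known let-7 targets, so this is no independent evidence either.

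Of 29 genes of fetal growth, IGF signaling and imprinted loci, 7 had at least 2-fold more and 7 at least 2-fold less H3K27me3 at PN15 than at E17.5, against 12.1% and 16.1% of all symbols, with a median of 0.09. Irs1, the adaptor of the IGF and insulin receptors, had the highest change of the list, with H3K27me3 of 6 at E17.5, 20 on PN1, 86 on PN7 and 108 on PN15 and H3K4me2 of 105, 66, 134 and 95. The IGF-binding protein gene Igfbp4 had H3K27me3 of 4, 4, 23 and 37 and less H3K4me2 at PN15 (35) than at E17.5 (72). The others with more were Igfbp2 (11 at E17.5 and 38 at PN15), Irs2 (4 and 17), Peg10 (2 and 10), Ndn (4 and 10) and Igf1r. Igf2 itself, the ligand whose mRNA gave the Igf2bp genes their name, was among the 7 with less, with H3K27me3 of 440, 603, 458 and 214 at the 4 stages, and H3K4me2 of 44, 25, 57 and 44. The other imprinted growth regulators with less H3K27me3 at PN15 than at E17.5 were Grb10 (264 and 107), Phlda2 (325 and 147), Dlk1 (329 and 153), Cdkn1c (57 and 27) and Nnat (11 and 5), and the IGF-binding protein gene Igfbp6 (275 and 126) was lower too. H3K4me2 was at least 2-fold higher at 1 of the 29, Ins2, and lower at 5 (Igf1, Igfbp4, Igfbp7, Gpc3 and Slc38a4), against 7.83% and 11.7% of all symbols.

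Of 25 relatives of the 6 genes (other RNA-binding protein families, TRIM-NHL ligases and HMG proteins), 3 had at least 2-fold more and 3 at least 2-fold less H3K27me3 at PN15 than at E17.5, shares close to or below the 12.1% and 16.1% of all symbols, with a median of 0.00. Nova1, a neuronal splicing regulator, had 4 at E17.5, 8 on PN1, 45 on PN7 and 24 on PN15. Elavl1, a ubiquitous mRNA-binding protein, was listed at 0 at E17.5 and had 5 at PN15, and Hmga1, the paralogue of Hmga2, had 5 and 12. Besides Lin28a, those with less were Fxr1 (14 and 4) and Pcbp2 (10 and 3). H3K4me2 was at least 2-fold higher at 1 of the 25, Lin28a, and lower at 1, Elavl4, against 7.83% and 11.7% of all symbols.

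**Figure D4:**
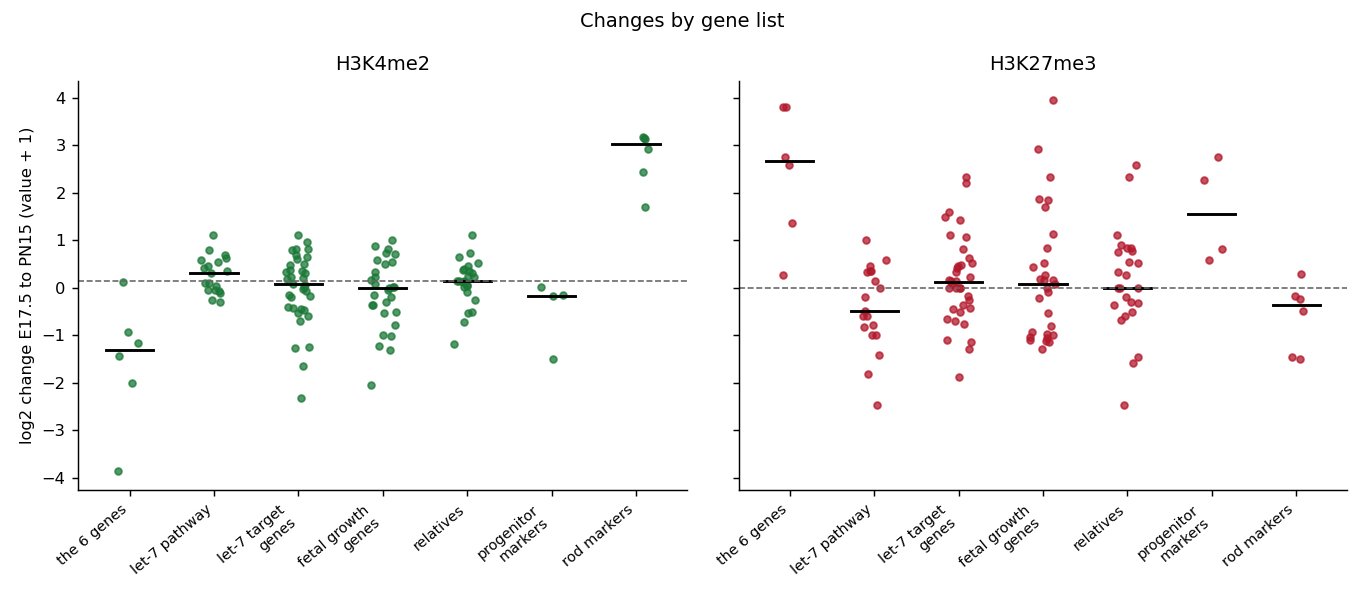
Log2 change from E17.5 to PN15 (y axis, of the value + 1) for each gene of 7 lists (x axis), with H3K4me2 on the left and H3K27me3 on the right, a point for each gene, a black bar at the list's median and a dashed line at the median of all symbols. The medians of the 6 genes, -1.30 and 2.67, are set against -0.16 and 1.55 for the progenitor markers and 3.02 and -0.36 for the rod markers.

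The genes whose 8 values were nearest to each of the 6 were found by Euclidean distance over log2(value + 1), among the other 20044 symbols. The neighbours depended on the measure: by Pearson's correlation 0 to 2 of the 5 were the same for each gene, 0 for Igf2bp1 and Igf2bp3, and by distances on the deposited values 0 to 3. For Igf2bp1 these were 5730559C18Rik (distance 2.43), Tbx2 (2.62), Trim71 (2.70), Sulf2 (2.72) and Mpp2 (2.74). None of these 5 had so low an H3K4me2 at PN15 as Igf2bp1, since they ranged from 16 to 37. Tbx2, a transcription factor of the dorsal retina, had H3K27me3 of 19, 30, 72 and 164. Igf2bp2 had close neighbours, namely Inppl1 (0.75), Tgfb2 (0.77), Auts2 (0.77), Cdh11 (0.84) and Slco5a1 (0.91), and all 5 kept H3K4me2 of 75 or more at PN15. For Igf2bp3 they were Ier5l (1.30), Plxnc1 (1.57), Tle3 (1.57), Sox11 (1.58) and Tgfb2 (1.59).

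Trim71 was nearest to Sulf2 (0.98), an extracellular heparan sulfate sulfatase, then to Sdk2 (1.10), Cacng4 (1.11), Boc (1.30) and Gm1673 (1.35). Hmga2 was nearest to Lgr5 (0.90), Sox9 (1.11), 1200009O22Rik (1.13), Bcl11b (1.13) and Wnt5a (1.14). Lgr5, a receptor for R-spondins, carried H3K27me3 of 51, 93, 130 and 106 over the 4 stages, with 95, 60, 98 and 55 for H3K4me2. Sox9, a transcription factor of progenitors and Müller glia, had H3K27me3 of 39, 77, 110 and 132. Lin28b, like Igf2bp1, had no symbol within a distance of 2, and its nearest were F11r (2.19), Bdkrb2 (2.25), Pnoc (2.30), Hpse2 (2.30) and Tcf7l2 (2.34). Within the group, Igf2bp2 was 10th from Igf2bp3 and Trim71 was 3rd from Igf2bp1, and Lin28b came 3199th or later in the order of distance from each of the other 5.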

How the data were processed

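Retinal ChIP-Seq libraries of H3K4me2 and H3K27me3 at 4 stages were used, 1 for each mark and stage. According to the submitters' processing notes the authors used Bowtie 0.12.4 and mm9. The deposited values are scores: the authors summed unique reads within 2.5 kb of each RefSeq TSS, scaled them to the mapped reads of the library and rounded the result. They are not counts, and no count model was used to test stages. Only the intervals treat them as counts, after division by the value of 1 read given below. Samples were grouped by the titles in the labels. Antibody catalogue numbers are interchanged within the labels, so the mark was also taken from the title.

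The 25152 entries were reduced to 20045 symbols. Where a symbol had several entries, a single one was kept whole, chosen for the highest total of its values across marks and stages. Changes are log2((value + 1)/(value + 1)), which understates low genes, and 2-fold was the limit. The value of 1 read was estimated from the uneven frequency of whole numbers. It was 0.5355 and 0.946 for H3K4me2 at E17.5 and PN1 and 0.8195, 0.3125 and 0.8725 for H3K27me3 at PN1, PN7 and PN15, a method tested on simulated data. In the other 3 libraries, H3K4me2 at PN7 and PN15 and H3K27me3 at E17.5, no such pattern was seen, and 1 was used. In the simulated data a value of 1 left no pattern, but neither did a very small one. Read numbers and intervals that involve these libraries therefore rest on an assumption. A value of 0 allows up to 3 reads, or 0.9375 to 3 units. Ratios have exact conditional binomial intervals at 95%.

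The genes named were the 6 members, their 5 nearest symbols, the markers and, for each list, the 2 highest and 2 lowest H3K27me3 changes from E17.5 to PN15 and any late rise. A late rise is at least 2-fold more H3K27me3 both from PN7 to PN15 and from E17.5 to PN15. The other genes past 2-fold were named after their values were seen. The 6 genes and the lists were chosen with earlier results of these data known. H19 and Meg3 and the 18 miRNA loci were not analysed here, and 3 list genes are not reported here. Promoters and miRNAs came from RefSeq (GRCm38.p6 promoters matched by sequence to NCBIM37) and UTRs from the NCBIM37 annotation. Python 3.11.15, pandas 2.3.3 and scipy 1.17.1 were used. Alternatives changed the pseudocount, scaling, fold, low-value filter and entry rule.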

Additional observations from a re-analysis of the deposited data

How the results depend on the processing

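No paired analysis was possible because each mark and stage had 1 library, and for the same reason no replicate could be left out. Of the counts of members under an alternative, 81 stayed within 1.5 times the value given above and 17 did not, and no stage change past 2-fold turned its direction. The 5 of 6 genes with more H3K27me3 at PN15 than at E17.5 stayed within that range under all 6 alternatives, and H3K4me2 at Igf2bp1 had the lowest change of all symbols from PN7 to PN15 under all 5 alternatives for the stage changes.

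The 1.5-fold limit gave 5 genes lower in H3K4me2 from E17.5 to PN1 (31.8% of all symbols) and 5 higher from PN1 to PN7 (11.5%), and in H3K27me3 from PN7 to PN15 2 higher (25.1%) and 3 lower (20.7%). The 3-fold limit gave 0 for each of these 4 (0.793%, 0.454%, 6.54% and 1.55%) and 0 for H3K27me3 higher from E17.5 to PN1 (0.963%), and 2 for H3K4me2 lower from PN7 to PN15 (0.359%) and 2 from E17.5 to PN15 (4.97%). Rescaling to the same median gave 0 lower in H3K4me2 from E17.5 to PN1 (0.793%) and 4 higher from PN1 to PN7 (7.35%). A pseudocount of 5 gave 0 with more H3K27me3 from E17.5 to PN1 (1.08%). From PN7 to PN15, 0 genes gained H3K4me2 with the larger value at least 20 (42% of symbols) or with PN1 in place of PN7 (21.3%, chosen after seeing the data), and with PN1 1 gene was lower (12.4%). After rescaling, H3K4me2 at Trim71 from E17.5 to PN1 changed by 0.26 in place of -0.32.

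For H3K27me3 from E17.5 to PN15, a pseudocount of 5 gave 0 higher and 2 lower in the let-7 pathway and 4 higher and 2 lower among let-7 targets (5.37% and 9.54% of all symbols). The common median gave 0 higher and 3 lower in the let-7 pathway (10.1% and 13.8%). The 1.5-fold limit gave 7 lower among the 36 let-7 targets (26.8% of all symbols) and 8 higher among the 25 relatives (21.8%). The 5 nearest genes depended on the measure. By Pearson's correlation 0 were shared for Igf2bp1, 1 for Igf2bp2, 0 for Igf2bp3, 1 for Lin28b, 2 for Hmga2 and 1 for Trim71, and by distances on the deposited values 3, 1, 0, 1, 3 and 3. The cause was not tested. Low values, as at Lin28b and Igf2bp1 in H3K4me2 and at the low list genes in H3K27me3, limit these ratios. Variation between animals is not covered by any interval.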
